A study of Mus musculus with 12 samples.

Results

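The genes described here encode the proteins of the cytosolic ribosome. They were taken as every gene whose single symbol in the array annotation began with Rpl or Rps and a number, or was Rplp0, Rplp1, Rplp2 or Rpsa, without the Rps6k kinases, and each gene was read from its brightest probe set over the 12 arrays. The rule gave 48 of 12335 genes with a symbol of their own, read by 100 of 22516 probe sets. Of the 48, 26 belong to the large subunit and 22 to the small subunit. A further 30 ribosomal protein genes, among them Rpl3, Rpl5, Rplp1 and Rps12, were measured only by probe sets that carry several symbols, and they are given as a group and not by name.

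Each ribosome is a small subunit, which reads the mRNA, and a large subunit, which joins amino acids, and each subunit is built of ribosomal RNA and many proteins that are made in near equal numbers. Pancreatic acinar cells, which make and secrete the digestive enzymes, are among the most active protein-producing cells of the body. Most ribosomal protein mRNAs start with a C followed by a run of pyrimidines, the terminal oligopyrimidine tract, through which the kinase mTORC1 and the protein LARP1 set their translation, so their mRNA level is only one of the layers at which they are controlled. Mist1, also called Bhlha15, is a transcription factor of serous secretory cells, and caerulein is a cholecystokinin analogue that drives acinar secretion and, given repeatedly at a high dose, is a standard way to provoke acute pancreatitis in mice.

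Whole pancreas was profiled on 12 Affymetrix mouse arrays, 1 pancreas to an array, in 4 groups of 3. The groups were wild type C57BL6 mice given saline, wild type C57BL6 mice given caerulein, Mist1KO mice given saline and Mist1KO mice given caerulein. All were males of 2 to 4 months, injected hourly for 4 hours. The sources used here do not give the caerulein dose, the strain background of the Mist1KO mice or which stretch of the gene was removed. The series' design text calls the pancreata biological replicates, and p-values measure the spread between them.

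Values were linear signal intensities, analysed as log2 of the signal plus 18.7, and groups were compared with limma over 15716 probe sets, a difference being called at a Benjamini-Hochberg adjusted p under 0.05. Bhlha15 read 1601 to 1624.3 on the wild type saline arrays, 729.5 to 838.5 after caerulein, 89.9 to 106.8 on the Mist1KO saline arrays and 38.3 to 79.4 after caerulein in Mist1KO, in the order the labels give, though where its probes lie relative to the deletion is not known. The summed signal of 20 of 27 listed acinar digestive enzymes was 352775 to 427174 with saline and 284179 to 389319 with caerulein in wild type mice. In Mist1KO mice it was 243344 to 281832 with saline and 145943 to 219315 with caerulein. As deposited, 19 of the 20 were called lower after caerulein in Mist1KO, beside 13.4% of all probe sets. In wild type 1 of the 20 was, beside 9.74%. The summed signal of 13 of 15 duct genes was 5337 to 6222, 22044 to 28861, 4232 to 5482 and 21722 to 24806 in that order of groups. Such a sum is weighted to the brightest genes. Of 11 duct genes tested, 4 were called higher, 1 lower and 6 not after caerulein in wild type, beside 9.19% and 9.74% of all probe sets. In Mist1KO 6 were called higher, 1 lower and 4 not, beside 10.5% and 13.4%. In whole pancreas, fewer cells of a type and less RNA per cell cannot be told apart. The hybridisation spikes, control RNAs added in a fixed amount, read 755 to 1440 on the first 3 groups and 408 to 513 on the Mist1KO caerulein arrays, and Actb, probed at both ends as a sign of RNA quality, gave 3′ over 5′ signal of 1.46 to 1.66, 1.28 to 1.4, 1.7 to 1.93 and 1.08 to 1.2. Their part in the results below was not tested.

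To show what the mRNA start of these genes looks like, the 30 bases from 10 before to 19 after the annotated start are printed below for 3 members that have a long pyrimidine run and 3 whose levels stood out. The letters are from RefSeq on GRCm38.p6, are read 5′ to 3′ on the gene's strand, and capitals mark a run of a C followed by at least 5 pyrimidines.
Rpl7a, chr2:26910797-26910826, plus strand: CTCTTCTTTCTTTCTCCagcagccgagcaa
Rpl13a, chr7:45128726-45128755, minus strand: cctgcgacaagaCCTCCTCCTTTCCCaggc
Rps27, chr3:90213629-90213658, minus strand: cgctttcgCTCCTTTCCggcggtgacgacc
Rps27l, chr9:66946076-66946105, plus strand: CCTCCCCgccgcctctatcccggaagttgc
Rpl7l1, chr17:46782637-46782666, minus strand: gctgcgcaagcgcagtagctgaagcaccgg
Rpsa, chr9:120127756-120127785, plus strand: ttatttaaggacgtcatttccggccgcccg
Rpl7a and Rpl13a show runs of 17 and 14 pyrimidines. Rps27 and its paralogue Rps27l have runs of 9 and 7, and that of Rps27l opens the window of the first of its 2 listed starts. Such a run lay in this window for 24 of the 40 members with an entry (60.0%) and for 26.7% of 7642 genes.

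In the 300-base windows around the start, read on both strands, the letters CCGGAA, the core of the ETS-type site of GABP, were found in 67.5% of the 40 members and 28.9% of all genes with a window. GCCATC, the core of the YY1 site, was found in 8 of the 40 against 17.5%, and GGGCGG, an Sp1-type GC box, in 60.0% against 65.4%. The E-boxes that basic helix-loop-helix factors bind were not more frequent in the members. CACGTG, the Myc type, was found in 10.0% against 11.5%, CAGCTG in 5.0% against 18.2% and CATATG, a form that Mist1 can bind, in 0.0% against 2.26%. Rps27l and Rpsa held CCGGAA and none of the 3 E-boxes. These are matches of letters in a window and describe sequence alone.

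The members were bright on every array. The median member stood at the 99.0 to 99.3 percentile of all probe sets, which describes probe signal and not mRNA copies, since probe sets differ in how strongly they bind. The 3 with the highest signal were Rpl41, which codes for a very short basic peptide of the large subunit, Rps28 of the small subunit and Rpl38 of the large subunit. The 3 dimmest were Rps4l, Rpl39l and Rpl3l, paralogues of Rps4x, Rpl39 and Rpl3, and they failed the filter on low signal, which left 45 members to test. All 45 were among the probe sets kept by their mean over all arrays, not by 1 group.

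**Figure D1:**
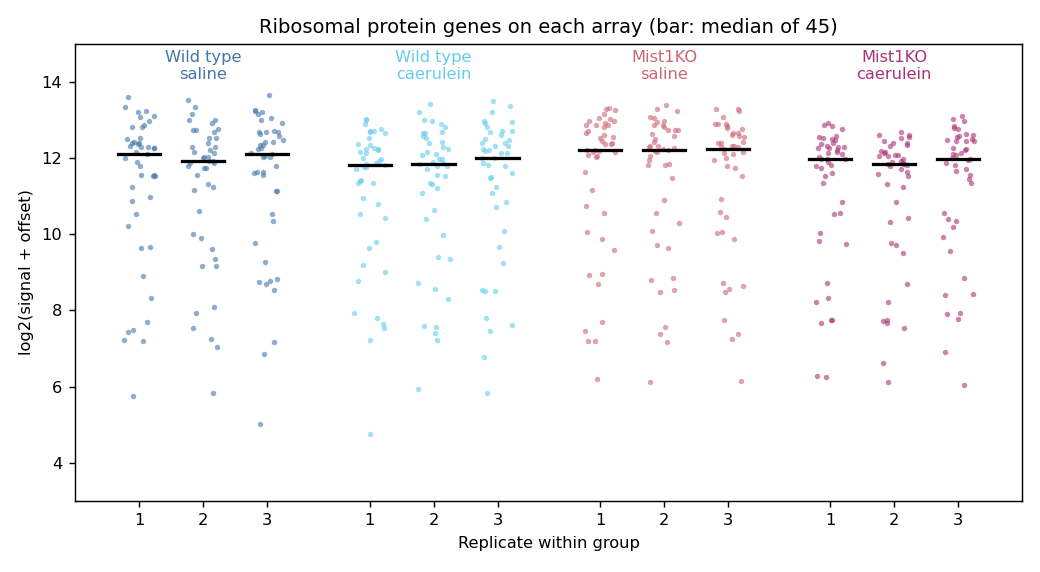
Each point is 1 of 45 ribosomal protein genes on 1 array, on the y axis as log2 of signal plus offset, with replicates on the x axis by group and a bar at the median. The medians of the Mist1KO saline arrays sit at 12.22 to 12.23, above those of the other 9 arrays at 11.82 to 12.12, and a tail of dimmer genes lies below on every array.

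The median member level was 12.12, 11.91 and 12.10 on the wild type saline arrays (12.04 ± 0.11, SD, n = 3), on the log2 scale. It was 11.82, 11.84 and 12.01 after caerulein in wild type (11.89 ± 0.10). In Mist1KO pancreas it was 12.23, 12.22 and 12.23 with saline (12.23 ± 0.01) and 11.99, 11.85 and 11.97 with caerulein (11.93 ± 0.08). The Mist1KO saline arrays were thus the highest and did not overlap with any other group. They were the highest group for 26 of the 45 members and the lowest for none, while 22 were lowest in Mist1KO caerulein and 16 in wild type caerulein. Of all 15716 probe sets tested, 4114 were highest and 2943 lowest in Mist1KO saline. Of the same probe sets 5825 were lowest in Mist1KO caerulein and 4155 in wild type caerulein. The members took 3.60% to 3.76% of all signal on the Mist1KO saline arrays and 2.84% to 3.43% on the others. The median SD within groups was 0.16 for the members and 0.26 for all probe sets tested, and the range of the 4 group means had a median of 0.49 against 0.70. The 2 sets were not matched for brightness. Among dim members the SD differed widely, such as 0.18 for Rpl12 and 0.6 for Rpl39. These levels follow the deposited scaling, and how another scaling moves them is given with each comparison.

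Without injection of caerulein, loss of Mist1 went with higher signal of a few ribosomal protein genes and much lower signal of one. Of the 45 members, 6 rose, where 6.84% of all probe sets did, and 1 fell, where 5.74% did. The 6 were Rps2, Rpsa, Rpl7a, Rpl27, Rps19 and Rplp2, at log2 differences from 0.45 to 0.72, and the 1 was Rps27l. The median difference was 0.13 for the members and -0.05 for all probe sets. In 18 of 45 members every Mist1KO array was above every wild type array, where 15.7% of all probe sets were so placed.

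Rpsa, a small subunit protein also known as the laminin receptor, read 1993.0, 2978.1 and 2233.3 in wild type and 4262.7, 3963.2 and 3433.5 in Mist1KO. The groups did not overlap, and the difference was 0.71 ± 0.16 (SE; 1.63-fold, limma adjusted p = 0.0123). Rpl7a of the large subunit read 7221.9, 6635.3 and 6592.6 against 10084.9, 9980.4 and 9625.3. All 3 Mist1KO arrays were higher, by 0.54 ± 0.12 (1.45-fold, adjusted p = 0.0116). Rps2, at the mRNA entry channel of the small subunit, read 4892.1, 3420.6 and 6629.4 against 8034.9, 8113.1 and 7585.5, a wide spread in wild type with no overlap, and differed by 0.72 ± 0.19 (adjusted p = 0.0288). Rps19, the small subunit protein most often mutated in Diamond-Blackfan anaemia, rose by 0.47 ± 0.13 (adjusted p = 0.0343), from 936.4 to 1288.4 in wild type to 1486.2 to 1690.5 in Mist1KO. Rplp2, a protein of the stalk that recruits elongation factors, rose by 0.45 ± 0.12 (adjusted p = 0.0311). Rpl27 of the large subunit rose by 0.53 ± 0.13 (adjusted p = 0.0172) and its other 2 probe sets read 0.57 and 0.64, the second of them called. Rplp0, the base of the same stalk, was at 0.34 ± 0.12 and did not pass.

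Rps27l, a paralogue of Rps27 known as a p53 target, was the member that moved most. It read 2922.1, 2560.6 and 3148.1 on the wild type saline arrays and 922.7, 822.9 and 1040.6 on the Mist1KO saline arrays. The groups were far apart, with the lowest wild type array above the highest Mist1KO array, and the difference was -1.61 ± 0.17, a 3.06-fold lower signal (adjusted p = 7.21e-05). All 3 probe sets of the gene were called, at -1.44 to -1.61. Against the median member the difference was -1.83. Rps27, its paralogue, read 462.7, 554.4 and 396.7 against 392.5, 442.6 and 339.9, which overlapped (-0.25 ± 0.19, adjusted p = 0.412). Probe sets of near-identical paralogues can share RNA, and the _x_at ending of the brightest probe set of Rps27l marks probes that can bind other sequences, whose part in the difference was not tested. The probe set of the gene without that ending was at -1.61 ± 0.17.

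The split between rises and falls moved with the scaling of the arrays. Scaled as deposited, 54.4% of all calls were higher, against 71.5% with arrays centred on their median, and the members were then 12 higher and 1 lower. After quantile normalization they were 10 and 2, and scaled to the spikes 20 and 1, with the median member above 0 in each. Of all probe sets 8.91% were called higher and 3.55% lower after median centring. The shares were 7.69% and 5.34% after quantile normalization and 14.7% and 0.668% under the spikes. Without wild type saline replicate 1 or replicate 2 the count of called members was 4, without Mist1KO saline replicate 1 it was 2 and without replicate 3 it was 3. Rpl7a and Rps27l were called in all 26 alternatives apart from centring on the median member, and Rps27l ranged from -1.70 to -1.14. So centred, Rps27l was still called and Rpl7a was at 0.32 (adjusted p = 0.0515). Rpsa was called in 23 of 26 alternatives, with differences of 0.33 to 1.18. Its call ended without wild type saline replicate 1 or Mist1KO saline replicate 1, and also in a setting that left out no array. Rpsa has 2 probe sets, and the dimmer is not given on its own. The call of Rpl27 ended without wild type saline replicate 2 or Mist1KO saline replicates 1 or 3. Those of Rps2 and Rps19 ended without any 1 array of the comparison except wild type saline replicate 3, and that of Rplp2 without wild type saline replicate 1 or any Mist1KO saline array.

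**Figure D2:**
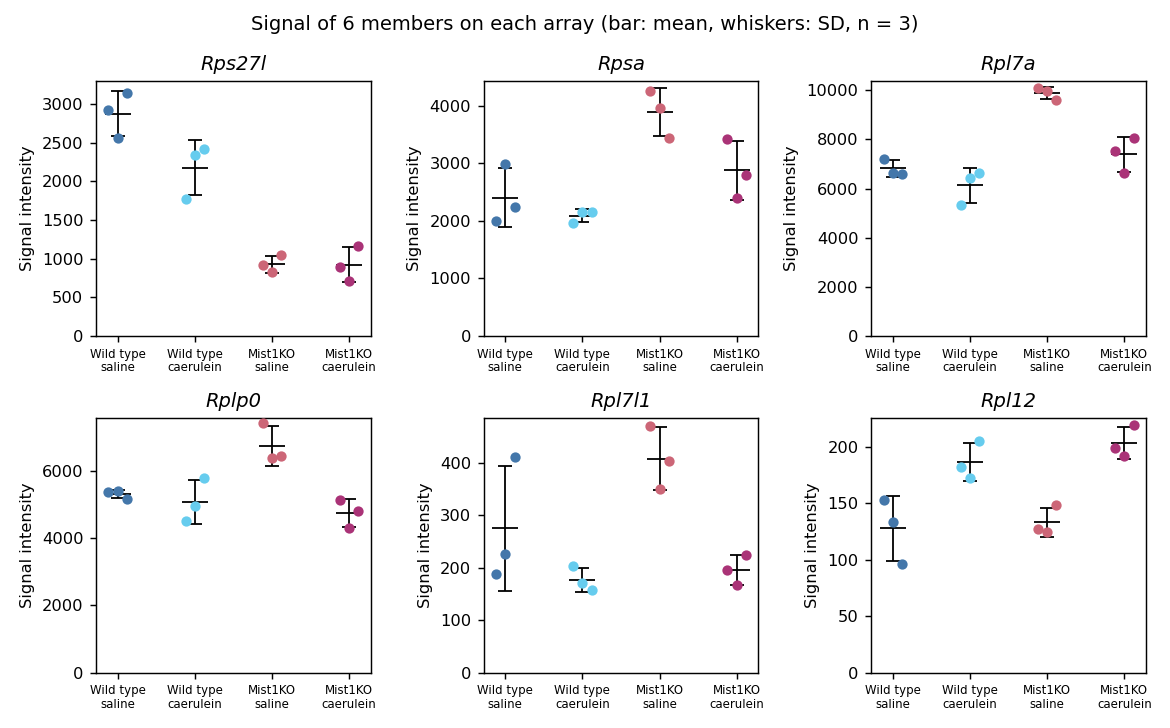
Signal intensity on the y axis (linear, from 0) of 6 members in the 4 groups on the x axis, with 1 point per array, the mean and the SD (n = 3). Rps27l lies at 713.3 to 1160.8 in all 6 Mist1KO arrays and at 1770.5 or more in all 6 wild type arrays, while Rpl12 is the one of the 6 panels in which both caerulein groups lie above both saline groups.

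In wild type pancreas, caerulein was followed by little change in single ribosomal protein genes. One of 45 members rose, where 9.19% of all probe sets did, and 2 fell, where 9.74% did. The median difference was -0.16 for the members and -0.14 for all probe sets, so the members followed the general shift of the deposited scaling. All 3 caerulein arrays were below all 3 saline arrays in 12 members (26.7%), against 20.7% of all probe sets. Rpl12, of the large subunit stalk base, rose, and Rpl13a and Rps3 fell.

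Rpl12 read 153.0, 133.5 and 96.3 with saline and 181.8, 172.5 and 204.9 with caerulein. The groups did not overlap, and the rise was 0.50 ± 0.17 (1.42-fold, adjusted p = 0.0493). Against the median member it was 0.63. Rpl13a, a large subunit protein known for a role in silencing inflammatory mRNAs, read 4889.3, 4959.7 and 4515.1 against 3755.4, 3528.4 and 3717.0, with no overlap, and fell by 0.38 on the log2 scale (SE 0.10, adjusted p = 0.0142). Its other 3 probe sets read -0.24, -0.14 and -0.09, none called. Rps3, at the mRNA entry of the small subunit and also active in DNA repair, read 5296.3, 4527.6 and 6337.6 against 3476.8, 4014.3 and 4104.5 and differed by -0.47 ± 0.13 (adjusted p = 0.0218). Rps27l read 1770.5, 2345.2 and 2419.5 after caerulein, all below the saline arrays, at -0.41 ± 0.17 (adjusted p = 0.12), while its probe set without the _x_at ending passed at -0.53 ± 0.17 (adjusted p = 0.0392).

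The 3 calls depended on single arrays. That of Rpl12 ended without any 1 array except wild type saline replicate 1, and its difference was above 0 in all 26 alternatives, at 0.34 to 0.72. That of Rpl13a ended without wild type saline replicate 1 or caerulein replicate 2, and that of Rps3 without wild type saline replicates 1 or 3 or caerulein replicate 1. Without wild type caerulein replicate 2 only 1 member was called. No member was called when only these 6 arrays were fitted, and 12 were, 11 of them lower, after quantile normalization. Centred on the array median, the share of all calls that were higher went from 48.5% to 67.8%, with 1 member higher and 0 lower. Scaled to the spikes the median member was at 0.11 and none was called.

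In Mist1KO pancreas, caerulein was followed by lower signal across the group, with the deposited scaling. Of the 45 members 14 fell, where 13.4% of all probe sets did, and 1 rose, where 10.5% did. In 42 of 45 the difference was below 0, and the median was -0.30, against -0.13 for all probe sets. All 3 caerulein arrays were below all 3 saline arrays in 32 members (71.1%), against 27.3% of all probe sets. This direction depends on the scaling: the median was -0.20 after quantile normalization and -0.18 after median centring, but 0.73 when arrays were scaled to the spikes, where the median of all probe sets was 0.76 and 41 members and 56.5% of all probe sets were called higher. The falls were spread over both subunits, with 9 of 24 large subunit and 5 of 21 small subunit genes called lower.

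Rplp0, the stalk base protein, read 7423.6, 6368.1 and 6438.6 with saline and 5140.3, 4307.0 and 4809.8 with caerulein. The groups did not overlap, and the difference was -0.50 ± 0.12 (1.42-fold, adjusted p = 0.00812). Its partner Rplp2 read 4594.8, 4903.7 and 4532.3 against 3589.3, 3684.6 and 3586.6, again apart, at -0.37 ± 0.12 (adjusted p = 0.0457). Rpl7l1, a paralogue of Rpl7 that works in the nucleolus, had the largest fall of all members. It read 470.5, 349.6 and 404.7 against 195.2, 168.0 and 224.1 and fell by 0.99 on the log2 scale, or 1.99-fold (SE 0.23, adjusted p = 0.00585). Against the median member it was at -0.70. Its second probe set was at -0.41 ± 0.20 and did not pass.

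The next 6 called falls were close in size. Rpl41 was at -0.48, Rps18 of the small subunit head at -0.47, Rps14 of the platform at -0.45, Rps7 at -0.44, Rpl7a at -0.42 and Rps29 at -0.42. All of these groups were without overlap. Other members fell without being called. Rps2 was at -0.47 ± 0.19 (adjusted p = 0.0979). Rpl27a, named after its values were seen, read 127.3, 147.7 and 134.0 with saline and 59.0, 78.9 and 101.6 with caerulein. Rps14 and Rps7 belong to a set of ribosomal proteins that can bind MDM2, the inhibitor of p53, and of the 8 measured members of that set 4 fell and none rose, beside 14 falls among all 45 members and 13.4% of all probe sets. The others of the 4 were Rps3, at -0.41, and Rpl11, at -0.40 ± 0.10 (adjusted p = 0.01). The remaining calls were Rpl13a at -0.40, Rpl38 at -0.38 and Rpl6 at -0.41. Rps3, Rpl13a and Rpl6 were named in this comparison after their values were seen, to complete the 14. Neither of the ribosomal proteins Rps6, the substrate of the S6 kinases, nor Rpl22, which binds viral and cellular RNA, was called, at -0.20 ± 0.20 and -0.01 ± 0.15. Rpl22l1, its paralogue, was at 0.01 ± 0.14.

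Rpl12, read by its 1 dim probe set, went the other way here as well. It read 126.9, 124.7 and 147.9 with saline and 198.3, 191.7 and 219.3 with caerulein, a rise of 0.55 ± 0.17 (1.46-fold, adjusted p = 0.0278) with no overlap. Against the median member the rise was 0.84. It stayed positive in all 26 alternatives, at 0.42 to 1.5, and its sign was the same under the spikes. Rps27l did not follow the group either, with -0.03 ± 0.17 on readings of 922.7, 822.9 and 1040.6 against 885.9, 713.3 and 1160.8, which overlapped.

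**Figure D3:**
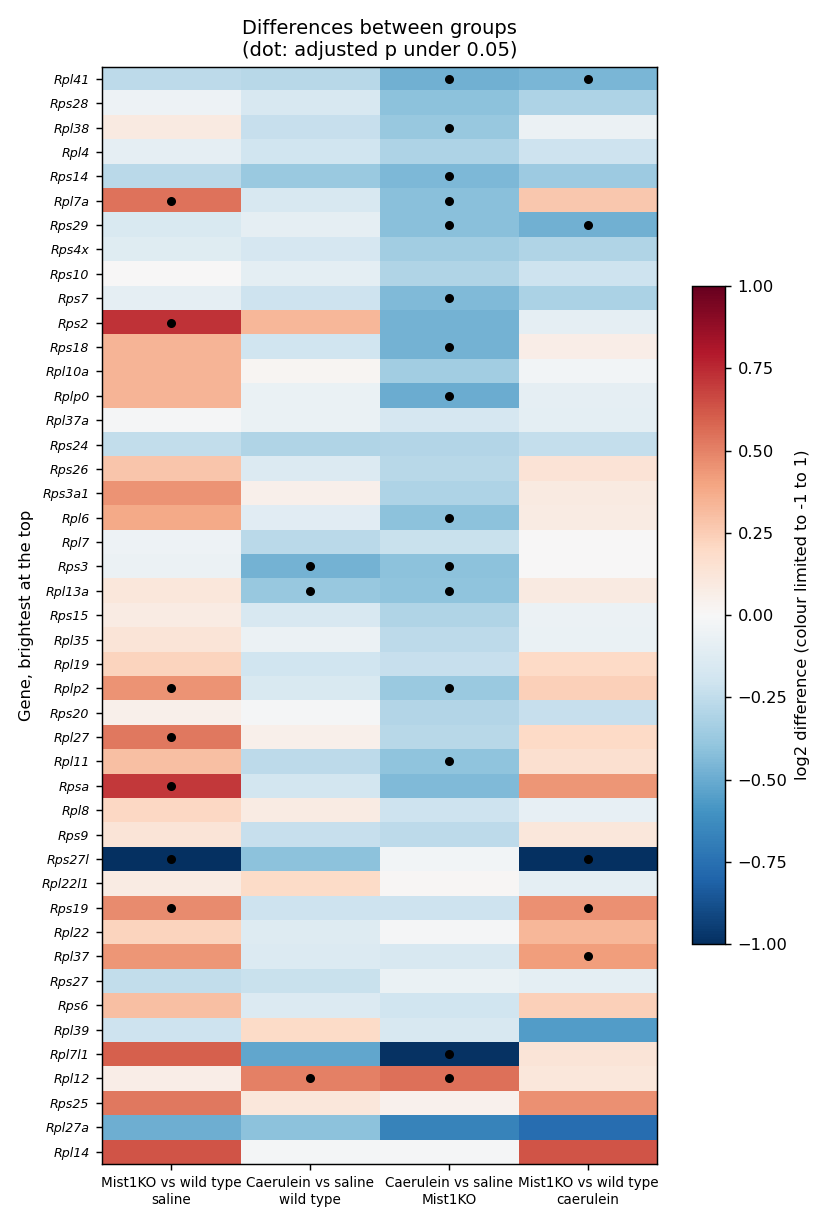
Each row is 1 of 45 members ordered by signal, each column a comparison, the colour the log2 difference (blue lower, red higher, limited to -1 to 1) and a dot a call at adjusted p under 0.05. With the deposited scaling the column for caerulein in Mist1KO is blue in all but 3 rows, a direction that turns under the spikes, and Rpl12 has the only called rise in the 2 columns of caerulein against saline.

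The count of 14 falls and 1 rise was 5 calls without Mist1KO saline replicate 1, 6 without replicate 2, 8 without Mist1KO caerulein replicate 1 and 5 without replicate 2, and 25 with array quality weights. Centred on the array median it was 1 higher and 1 lower, and 43.9% of all calls were higher as deposited against 59.8% so centred. The fall of Rpl7l1 was called in 25 of 26 alternatives, all but the spikes, where it was at -0.03. Those of Rplp0, Rpl11 and Rpl13a were called in 24 of 26: they were not called with arrays centred on their median, and under the spikes the same genes were called higher. The calls of Rps7 ended without Mist1KO saline replicate 1 or caerulein replicate 2. Those of Rpl7a, Rpl6 and Rps14 ended without Mist1KO saline replicates 1 or 2 or caerulein replicates 1 or 2. Those of Rpl41 and Rpl38 also ended without Mist1KO saline replicate 3, that of Rps3 without any of the 3 saline arrays or caerulein replicates 2 or 3, and that of Rpl12 without Mist1KO saline replicates 1 or 2 or any caerulein array. The calls of Rplp2 and Rps29 ended without any of 8 and of 7 single arrays.

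**Figure D4:**
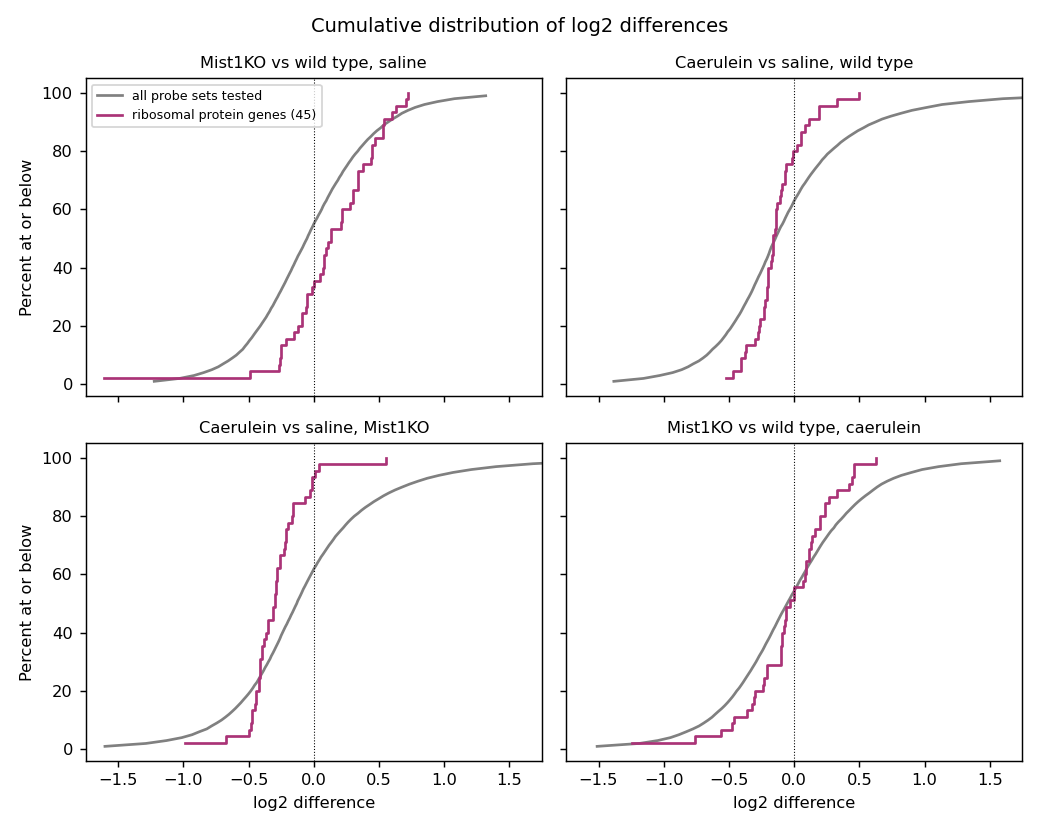
Percent of genes at or below each log2 difference, in 4 comparisons, for 45 ribosomal protein genes (steps) and all 15716 probe sets tested (line). With the deposited scaling, and not under the spikes, the steps rise earlier in Mist1KO after caerulein, with a median of -0.30 against -0.13, and the members' curves are steeper than the curve of all probe sets in all 4 panels.

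After caerulein, Mist1KO pancreas differed from wild type pancreas in few ribosomal protein genes and with no common direction. Of 45 members, 2 were higher, where 10.0% of all probe sets were, and 3 were lower, where 10.2% were. The median was -0.03, against -0.05 for all probe sets, and it turned to 0.14 after quantile normalization, to 0.06 after median centring and to 1.20 under the spikes. There 42 members were called higher, beside 74.3% of all probe sets, whose median was 1.01. Rps27l was again the lowest, on readings of 1770.5, 2345.2 and 2419.5 in wild type and 885.9, 713.3 and 1160.8 in Mist1KO. The difference was -1.24 ± 0.17 (2.36-fold, adjusted p = 0.000246) with no overlap, and at -1.15 and -1.20 in the gene's other probe sets. It was called in 25 of 26 alternatives, and under the spikes it was -0.03.

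Rps19 was higher in Mist1KO after caerulein as well, at 1493.1, 1267.8 and 1291.9 against 875.2, 994.0 and 1060.2 (0.46 ± 0.13, adjusted p = 0.024), and its groups did not overlap. Rpl37 of the large subunit was at 840.7, 861.7 and 734.8 against 562.0, 658.0 and 592.0 (0.42 ± 0.14, adjusted p = 0.0467), also apart. Rps29, of the small subunit head, was lower, at 5376.4, 5535.5 and 6311.2 against 6666.8, 8156.1 and 9442.6 (-0.48 ± 0.14, adjusted p = 0.0262), and its other 2 probe sets, at -0.15 and -0.07, were not called. Rpl41 was lower at -0.46 ± 0.15 (adjusted p = 0.0444), although its groups overlapped, with a wild type array at 8223.4 and a Mist1KO array at 8408.6. Under the spikes the signs of Rps29 and Rpl41 turned. The count was 1 without wild type caerulein replicate 2 or Mist1KO caerulein replicate 1, and 3 without wild type caerulein replicate 3, Mist1KO saline replicate 3 or Mist1KO caerulein replicate 2. It was 10 with array quality weights. With arrays centred on their median the share of all calls that were higher went from 49.7% to 61.8%, and the members were 4 higher and 1 lower. The call of Rps19 ended without wild type caerulein replicates 1 or 2 or Mist1KO caerulein replicate 1, that of Rps29 without wild type caerulein replicates 2 or 3 or Mist1KO caerulein replicates 1 or 2, and those of Rpl37 and Rpl41 without any of 7 and of 9 single arrays.

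The caerulein effect was not shown to differ between the genotypes for any member. In limma's test of the interaction 0 of 45 were called, where 3.3% of all probe sets were, and 2 had an unadjusted p under 0.05. Those were Rps2, at -0.80 ± 0.27 (adjusted p = 0.143), and Rplp0, at -0.43 ± 0.17 (adjusted p = 0.22). Rps2 was called without wild type saline replicate 3, at -1.03 (adjusted p = 0.0368), and under the spikes 1 member was called, Rps27l at 1.11 (adjusted p = 0.0296). The median interaction of the members was -0.18, against -0.00 for all probe sets, and it was -0.03 after quantile normalization and 0.57 under the spikes, where all probe sets were at 0.66. The falls in Mist1KO and the smaller differences in wild type therefore cannot be set down as different responses.

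**Figure D5:**
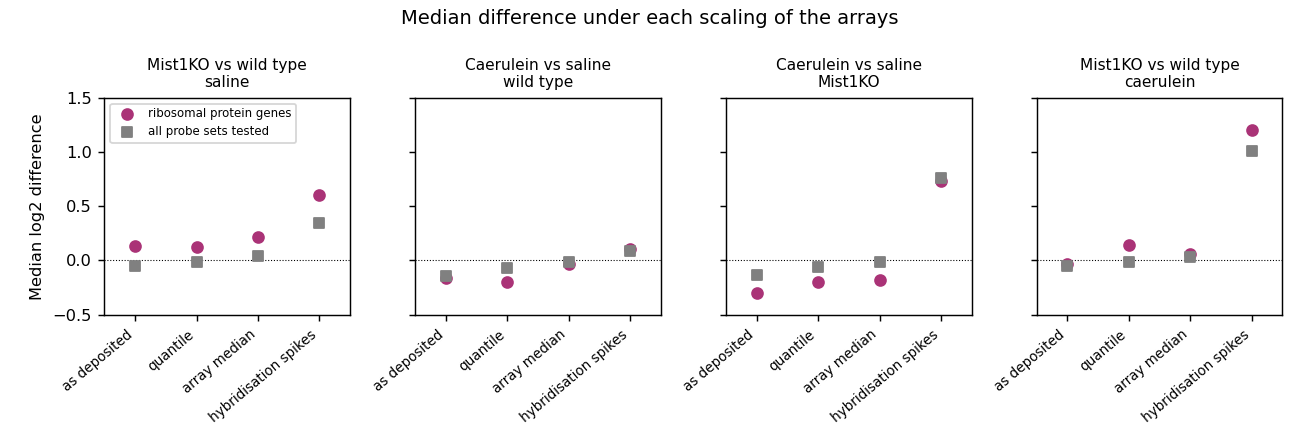
Median log2 difference (y axis) of the 45 members and of all probe sets tested under 4 scalings of the arrays (x axis), 1 panel per comparison. The members' median after caerulein in Mist1KO lies at -0.30, -0.20 and -0.18 under 3 scalings and at 0.73 under the hybridisation spikes, and in that last setting all probe sets move with it.

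Several members with roles of their own outside the ribosome were followed in every comparison. Rpsa, 0.71 higher in Mist1KO with saline, was at -0.18 ± 0.16 after caerulein in wild type, -0.44 ± 0.16 in Mist1KO (adjusted p = 0.0602) and 0.44 ± 0.16 between genotypes after caerulein (adjusted p = 0.0662), none of the 3 called. Rpl11, which with Rpl5 and the 5S RNA can hold MDM2, was at 0.30 ± 0.10 in Mist1KO with saline (adjusted p = 0.0697) and -0.26 ± 0.10 after caerulein in wild type (adjusted p = 0.0855), so its fall in Mist1KO was its one call. Rps6 was at 0.30, -0.14, -0.20 and 0.24 in the 4 comparisons with an SE of 0.20, and was called in none. Rps27 was at -0.25, -0.22, -0.07 and -0.10 with an SE of 0.19, also with no call. Rpl22l1 was at 0.08, 0.19, 0.01 and -0.10 with an SE of 0.14, and its arrays overlapped in all 4 comparisons.

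Rps4l, one of the 3 members too dim to test, read 183.0, 65.2 and 11.9 on the Mist1KO caerulein arrays and at most 14.4 on the other 9. Replicate 1 and replicate 2 stood above every other array and replicate 3 did not. With no filter the difference in Mist1KO was 1.46 ± 0.47 (adjusted p = 0.0508), which did not pass. Rpl39l and Rpl3l, paralogues known from testis and from muscle, read at most 42.6 and 12.1 on any array.

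Other genes of the translation machinery were taken from lists chosen with earlier results of these data known. Most of those named from a list had its largest called changes. Fau, which makes a small subunit protein from a ubiquitin-like fusion, was higher in Mist1KO with saline (0.63 ± 0.12, adjusted p = 0.00601) and after caerulein (0.55 ± 0.12, adjusted p = 0.00691). Of 19 other genes whose mRNAs carry pyrimidine tracts, most of them translation factors, 8 rose and 1 fell in Mist1KO with saline, beside 6.84% and 5.74% of all probe sets, led by Eif3e (0.72 ± 0.11) and by Nap1l1, a histone chaperone, at -0.81 ± 0.17. After caerulein 3 fell and none rose in each genotype, where 9.74% of all probe sets fell in wild type and 13.4% in Mist1KO, in wild type among them Vim, at -0.84 ± 0.23, and Nap1l1, and in Mist1KO Tpt1, at -0.61 ± 0.14, and Eef1a1, which brings aminoacyl tRNA to the ribosome, at -0.51 ± 0.17. In Mist1KO against wild type after caerulein 4 were higher and 2 lower, beside 10.0% and 10.2% of all probe sets. Under the spikes all 19 were called higher for caerulein within Mist1KO and for Mist1KO against wild type after caerulein. Of all probe sets 56.5% and 74.3% were called higher there. None of the 19 was called after caerulein in wild type, where 8.13% of all probe sets were called higher and 1.29% lower.

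The 74 mitochondrial ribosomal protein genes, which serve a separate ribosome, gave 5 rises and 0 falls in Mist1KO with saline, a share of rises near the 6.84% of all probe sets, led by Mrps6 (1.37 ± 0.32) and Mrpl11 (0.79 ± 0.16). After caerulein 12 fell and 0 rose in wild type, where 9.74% of all probe sets fell, led by Mrps16 (-1.07 ± 0.23) and Mrpl40 (-0.88). Under the spikes none of the 74 was called, beside 8.13% of all probe sets called higher and 1.29% lower. In Mist1KO 16 fell and 1 rose, where 13.4% and 10.5% of all probe sets did, led by Mrpl2 (-1.33 ± 0.19) and Mrpl57 (-1.19 ± 0.20). Under the spikes 36 were called higher and 0 lower, beside 56.5% and 1.11% of all probe sets. The 74 genes had median differences of 0.08, -0.17, -0.29 and -0.01 in the 4 comparisons, beside 0.13, -0.16, -0.30 and -0.03 for the cytosolic genes.

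Among genes that build ribosomes, calls after caerulein were mostly rises. Of 46 biogenesis and nucleolar genes 14 rose and 0 fell in wild type, where 9.19% of all probe sets rose, with Nop58, of the small nucleolar particle that methylates ribosomal RNA, at 1.62 ± 0.23 and Tsr1, of small subunit maturation, at 1.62 ± 0.35. In Mist1KO 9 rose and 1 fell, where 10.5% and 13.4% of all probe sets did, with Ddx21, a nucleolar helicase, at 1.23 ± 0.20 and Utp20, of early small subunit assembly, at 1.09 ± 0.26. With saline, 7 were higher in Mist1KO and 1 lower, beside 6.84% and 5.74% of all probe sets, among them Nop58 (1.07 ± 0.23) and the nucleolar chaperone Npm1 (1.05 ± 0.14). Medians were 0.20, 0.32, 0.19 and 0.16 in the 4 comparisons. Under the spikes the calls after caerulein were 13 higher and 0 lower in wild type and 40 and 0 in Mist1KO. Of all probe sets 8.13% were called higher there and 1.29% lower in wild type, and 56.5% and 1.11% in Mist1KO.

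The mTORC1 and S6 kinase list holds both activators and inhibitors of the pathway. In wild type after caerulein 4 of 20 rose and 6 fell, where 9.19% and 9.74% of all probe sets did, and under the spikes 4 were called higher and 1 lower. Sesn2, a leucine sensor that restrains mTORC1, had mean signals of 31 with saline and 500.8 with caerulein (3.44 ± 0.37, adjusted p = 2.09e-05), and Ddit4, another inhibitor, rose by 2.96 ± 0.49. In Mist1KO 4 rose and 6 fell, where 10.5% and 13.4% of all probe sets did, and under the spikes 11 were called higher and 1 lower. The largest changes were Sesn1 at -3.46 ± 0.29 and Ddit4 at 1.85 ± 0.49, while Sesn2 was at 26.4 and 45.5, and its interaction was called (-3.07 ± 0.52, adjusted p = 0.00622). With saline, 2 were higher and 2 lower in Mist1KO, beside 6.84% and 5.74% of all probe sets, led by the translation repressor Eif4ebp1 at -1.06 ± 0.15 and Sesn1 at 1.0 ± 0.29. Under the spikes 3 were called higher and 0 lower. Of all probe sets under the spikes, 8.13% were called higher and 1.29% lower after caerulein in wild type. The shares were 56.5% and 1.11% after caerulein in Mist1KO, and 14.7% and 0.668% for Mist1KO with saline. Larp1, which binds pyrimidine tracts, was named after its values were seen. With the deposited scaling it fell after caerulein in both genotypes, at -0.52 ± 0.11 and -0.51 ± 0.11. Only 1 gene of the list was called lower after caerulein under the spikes in each genotype, and how Larp1 stood there is not given.

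Of 15 transcription factors known to act on ribosomal protein or growth genes, Myc stood out. Its mean signal was 182 with saline and 444.9 with caerulein in wild type pancreas, and 307 with saline and 214 with caerulein in Mist1KO pancreas. It rose after caerulein in wild type (1.21 ± 0.21, adjusted p = 0.0011) and was higher in Mist1KO with saline (0.71 ± 0.21, adjusted p = 0.0411), and its interaction was called (-1.69 ± 0.30, adjusted p = 0.00774). Mxi1, which opposes Myc, fell in both genotypes as deposited, at -1.15 ± 0.26 and -1.14 ± 0.26. Of the 15, 1 rose and 1 fell in wild type after caerulein, where 9.19% and 9.74% of all probe sets did. In Mist1KO 3 fell and 0 rose, where 13.4% and 10.5% did. Under the spikes 1 was called higher and 1 lower in wild type, 7 and 0 in Mist1KO, and 0 for the interaction. Of all probe sets 8.13% were called higher there and 1.29% lower in wild type, and 56.5% and 1.11% in Mist1KO. The shares were 11.3% and 0.172% for the interaction. With saline 2 of the 15 were higher in Mist1KO, beside 6.84% of all probe sets, and 0 to 3 were called over the alternatives. Of 8 genes of ribosomal stress and p53, 2 rose and 2 fell after caerulein in wild type, where 9.19% and 9.74% of all probe sets did. In Mist1KO 2 rose and 1 fell, where 10.5% and 13.4% did. Under the spikes 2 were called higher and 0 lower in wild type and 4 and 1 in Mist1KO, beside the same shares of all probe sets as above. The cell cycle inhibitor Cdkn1a rose after caerulein in wild type (2.90 ± 0.31) and in Mist1KO (1.64 ± 0.31). Btg2, which restrains growth, rose in wild type (2.19 ± 0.36), and its mean signals in Mist1KO were 554.3 with saline and 1132 with caerulein. The kinase Plk2 fell in Mist1KO (-1.94 ± 0.30), and its mean signals in wild type were 173.2 with saline and 67.6 with caerulein. Neither interaction was called (limma adjusted p = 0.274 for Btg2 and 0.365 for Plk2). With the deposited scaling Rps27l, also a p53 target, was not called higher after caerulein in either genotype. Under the spikes it was called higher in Mist1KO, at 0.98.

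Probe sets that carry a ribosomal protein symbol together with other symbols were counted separately. Of the 93 tested, 65 carry no symbol of the 48 genes above. Of these 65, 4 rose and 0 fell in Mist1KO with saline and 1 rose and 5 fell after caerulein in wild type, where 6.84% and 9.19% of all probe sets rose and 5.74% and 9.74% fell. In Mist1KO against wild type after caerulein 6 of the 65 were higher and 3 lower, beside 10.0% and 10.2% of all probe sets. After caerulein in Mist1KO 15 of the 65 fell and 1 rose, where 13.4% and 10.5% of all probe sets did, as deposited. Their medians were 0.12, -0.17, -0.26 and 0.04 in the 4 comparisons. Where a member had several probe sets tested, which held for 19 members, all had the same sign in 13, 13, 15 and 7 of them in the 4 comparisons, and no member had probe sets called in both directions. Rpl22 was one whose probe sets differed in size, with the brighter at 0.22 ± 0.15 and the other at 0.80 ± 0.12 (adjusted p = 0.00115) in Mist1KO with saline.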

How the data were processed

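The members, gene lists and comparisons were chosen with earlier results of these data known. The authors deposited 1 linear signal intensity per probe set and array; the probe summarisation software, its scaling target and the detection calls were not given in the sources used here. The trimmed means were 150.84 to 151.22 on the 12 arrays. Groups came from the genotype and injection in the sample labels. Probe sets were named from the platform annotation (20240 with 1 symbol, 682 with several, 1530 with none, 64 controls). Intensities plus 18.7 (their 20th percentile) were log2 transformed; controls and probe sets with a mean at or below the 30th percentile were left out, which kept 15716. limma 3.58.1 (R 4.3.3) fitted 4 group means to all 12 arrays with eBayes and an intensity trend, two-sided, with Benjamini-Hochberg adjustment over all probe sets; differences are on the log2(signal + 18.7) scale, which understates changes of dim genes. The fit was tested on simulated data. Members named were the 8 largest called rises and falls per comparison, a fixed set (such as Rplp0, Rpsa, Rps6, Rpl22, Rps27 and Rps27l), the 3 brightest and 3 dimmest, and from each related list the 2 largest called changes. Alternatives were other scalings, offsets, filters, probe set choices, fits and each array left out; those for the related lists were chosen after seeing the data. The number of arrays limits the precision. Promoter windows and starts are RefSeq's, GRCm38.p6.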

Additional observations from a re-analysis of the deposited data

How the results depend on the processing

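Scaling moved the results most. Scaled to the hybridisation spikes, the members called numbered 21 for Mist1KO against wild type with saline, 0 for caerulein in wild type, 41 for caerulein in Mist1KO, 42 for Mist1KO against wild type after caerulein and 1 for the interaction, and the median differences were 0.60, 0.11, 0.73, 1.20 and 0.57. Of all probe sets 14.7%, 8.13%, 56.5%, 74.3% and 11.3% were called higher there, in the same order. Under that scaling 41 of 45 members turned from below to above 0 for caerulein in Mist1KO and 24 for Mist1KO against wild type after caerulein. Of the members named in each comparison, those that turned and were called higher there were, for caerulein in Mist1KO, Rplp2 (0.66), Rps6 (0.79), Rpl6 (0.61), Rpl22 (1.0), Rpl11 (0.63), Rps7 (0.59), Rplp0 (0.52), Rpl7a (0.61), Rpl38 (0.65), Rps3 (0.62), Rps27l (0.98), Rps14 (0.58), Rps29 (0.61), Rpsa (0.58), Rps18 (0.55), Rpl13a (0.62), Rpl41 (0.55) and Rps27 (0.92). For Mist1KO against wild type after caerulein those were Rpl22l1 (1.12), Rplp0 (1.14), Rps29 (0.75), Rpl41 (0.77) and Rps27 (1.07). Arrays centred on their median gave 13, 1 and 2 called members in the first 3 comparisons, with medians of 0.22, -0.03 and -0.18. Quantile normalization gave 12 and 12 called members for Mist1KO with saline and caerulein in wild type and 8 for Mist1KO after caerulein, with medians of -0.20 for caerulein in Mist1KO, 0.14 for Mist1KO after caerulein and -0.03 for the interaction. The cause of these differences between scalings was not tested.

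Without an intensity trend 4, 1, 9 and 1 members were called in the 4 comparisons. Array quality weights called 25 for caerulein in Mist1KO and 10 for Mist1KO after caerulein, and a fit of only the groups compared called 0 for caerulein in wild type. For Mist1KO after caerulein, no filter called 2, and leaving out probe sets ending _x_at or _s_at called 3 with a median of 0.08. With each array left out in turn, the calls ranged from 2 to 10, 1 to 2, 5 to 17, 1 to 6 and 0 to 1 over the 5 tests, and the medians from 0.12 to 0.17, -0.22 to -0.10, -0.36 to -0.26, -0.08 to 0.06 and -0.22 to -0.10. With the replicate number as a block 7, 2, 14, 4 and 0 members were called; it ended the call of Rpl12 in wild type, and the numbers did not pair the samples, since deviations of same-numbered arrays correlated at -0.104 to 0.045. For single members, 203 results of the alternatives lost a call, 25 gained one and 1568 kept their direction and side of the threshold. Signal over background could not be read, so no limit is given for dim members.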
